A study of Mus musculus with 5 samples.

Results

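Klf2, Klf3, S1pr1, S1pr4, Cd69, Tcf7, Lef1, Bach2 and Satb1 are 9 genes that govern whether a T cell leaves a tissue and whether it keeps the features of a resting or stem-like cell. They were picked by symbol from a table of 24417 named genes, and all 9 were measured in every library. The RNA came from cells of mouse colon, taken from the lamina propria, which lies beneath the gut epithelium. The reporter-null group, of 3 libraries, was of Thy1.1+ cells, labelled as reporter-null for Foxp3, the lineage factor of regulatory T cells (Treg). The Treg group, of 2 libraries, was of Foxp3-DTR-GFP+ cells, named for the diphtheria toxin receptor and GFP that this allele carries. Both groups have 1 strain label, which pairs the Foxp3DTR-GFP allele with a loxp-flanked Thy1.1-STOP cassette followed by GFP. The labels used here give neither age nor treatment, and do not say whether each library came from its own animal, so p-values measure the spread between libraries, which may be technical. The description of reporter-null replicate 1 carries both number 1 and number 4, and whether it pools animals is not said.

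KLF2 is a zinc finger factor of quiescent T cells that switches on S1PR1, the receptor with which lymphocytes follow the lipid sphingosine 1-phosphate (S1P) out of tissue, and also the lymph node homing receptor CCR7. CD69, induced on activation, binds S1PR1 and draws it from the cell surface, and so holds cells in place. TCF1 and LEF1, encoded by Tcf7 and Lef1, are related HMG-box factors that mark naive, memory and stem-like T cells, while BACH2 restrains effector genes and SATB1 organises chromatin in T cells.

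The 9 genes shifted for the most part towards lower transcript levels in reporter-null cells, and the single called rise was that of Tcf7. Counts were tested with edgeR's quasi-likelihood test, with Benjamini-Hochberg adjustment over all 14164 tested genes, and a gene was called at an adjusted p under 0.05. All 9 passed the filter on low counts, and their counts ran from 486 to 64162 in a library. In reporter-null cells Klf3, S1pr1, S1pr4, Lef1, Bach2 and Satb1 fell and Tcf7 rose, while Klf2 and Cd69 were not called. These 7 calls among 9 genes stand beside 8.79% of all tested genes called in either direction, 4.72% lower and 4.07% higher. The median log2 fold change was -0.83 over the 9 genes and 0.02 over all tested genes. The 9 genes were chosen with earlier results of these data known, so the count describes them and does not show that they stand apart.

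In all 9 genes the reporter-null libraries lay entirely on one side of the Treg libraries, 7 lower and 2 higher, as they did in 40.8% of all tested genes, 20.5% lower and 20.3% higher. Klf2 and Cd69 passed an unadjusted p of 0.05, as 22.6% of all tested genes did. Levels are CPM, each count divided by its library's TMM-adjusted total, as mean ± SD with n = 3 for reporter-null and n = 2 for Treg cells, and log2 fold changes, with their standard errors (SE), set reporter-null over Treg cells. In bulk RNA a lower level in fewer cells and a lower level per cell cannot be told apart.

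**Figure D1:**
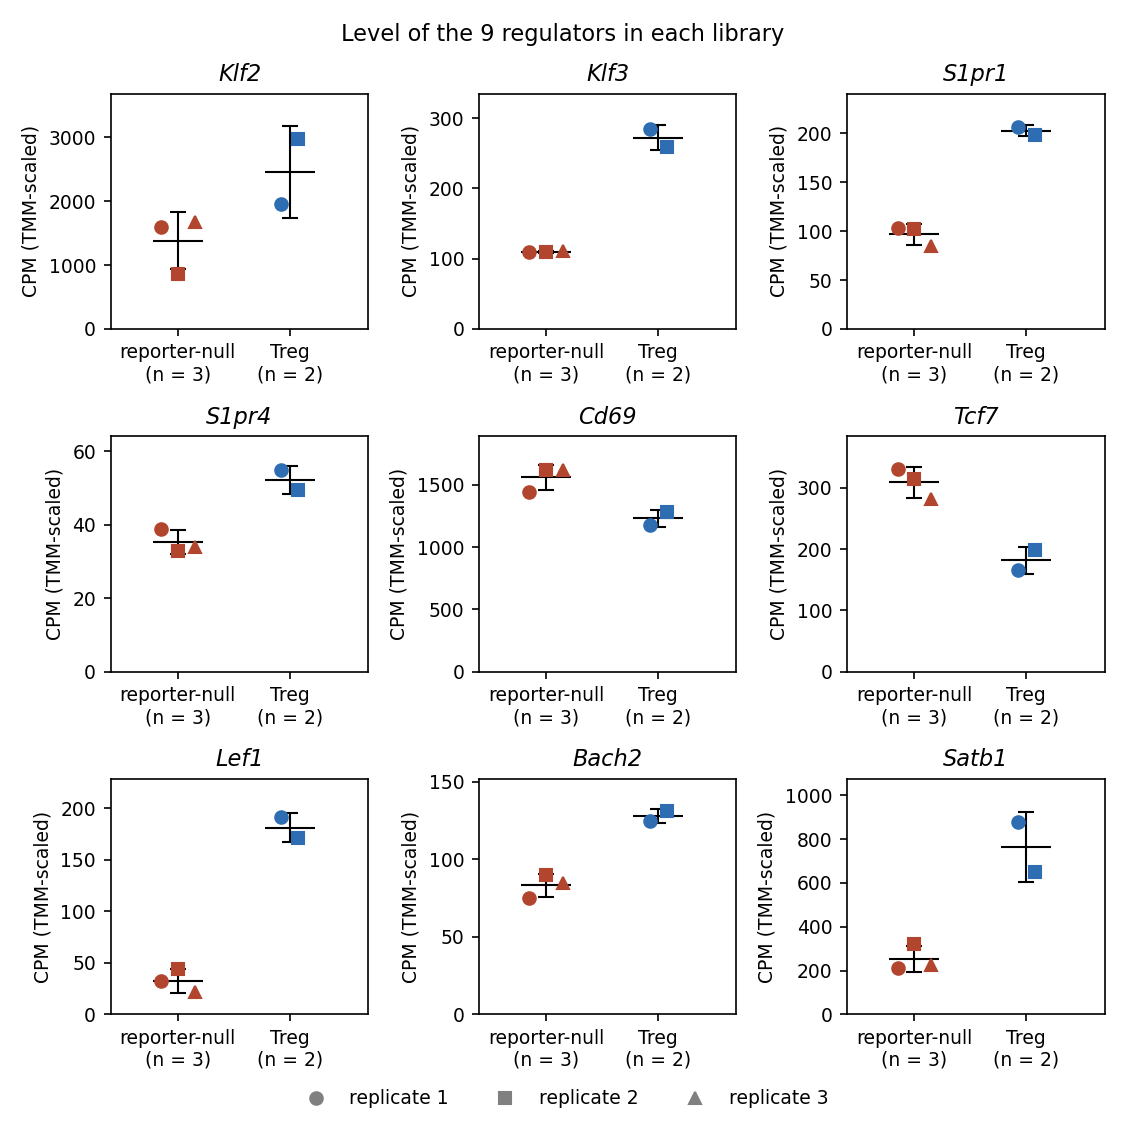
Level of each of the 9 genes in CPM, by library, with the 3 reporter-null libraries left of the 2 Treg libraries; black marks give the mean and SD. Reporter-null points lie above the Treg points for Cd69 and Tcf7 and under them for the other genes.

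The check of the labels held in every library. Foxp3 stood at 75.7 to 81.2 CPM in the reporter-null and 764 to 769 CPM in the Treg libraries, and Thy1, of which Thy1.1 is an allele, at 269.1 to 300.3 CPM and 18.8 to 21.3 CPM. Total counts ran from 17670420 to 22395169. The T cell markers Cd3e, Cd3d, Cd3g, Cd4, Lck, Cd2 and Cd5 summed to 5499 to 6158 CPM in reporter-null and 5822 to 5871 CPM in Treg libraries. Of these 7, Cd4 was called higher, at 1270.0 to 1553 CPM in reporter-null and 682 to 719 CPM in Treg libraries. Cd2 was called lower, at 429.6 to 492 CPM and 1076 to 1271 CPM. Of the CD8 markers, Cd8a stayed under 1 CPM in all 5 libraries. Cd8b1 was not called, but lay at 3.41 to 7.34 CPM in reporter-null and 11.1 to 11.6 CPM in Treg libraries. The part of CD8 transcripts in the results was not tested. Reporter-null replicate 2 and Treg replicate 1 stood apart from the rest of their groups. Their sums of 12 epithelial markers were 1603 and 359.8 CPM, against 40.9 and 44.0 CPM in the other reporter-null libraries and 53.0 CPM in Treg replicate 2. Their sums of 6 plasma cell markers, led by Jchain, were 1297 and 1816 CPM, against 650.1 and 668 CPM in the other reporter-null libraries and 724 CPM in Treg replicate 2. Both were also highest of their groups in B cell, myeloid and fibroblast markers.

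Klf2 had the highest level of the 9 genes per kilobase of exon, and its Treg libraries lay 1.52-fold apart. It stood at 1599.6, 865 and 1678 CPM in reporter-null replicates 1, 2 and 3, and at 1952 and 2965 CPM in Treg replicates 1 and 2. The lowest library was reporter-null replicate 2 and the highest Treg replicate 2, a gap between the groups of less than the spread inside either. The means were 1381 ± 449 and 2458 ± 716 CPM, a log2 fold change of -0.83 (SE 0.33, edgeR adjusted p = 0.216), with an unadjusted 95% interval of -1.65 to -0.01. DESeq2 called Klf2 lower (adjusted p = 0.0424), and 11 of 14 alternatives left it uncalled. With Treg replicate 1 and reporter-null replicate 2 both left out, which leaves a lone Treg library, the log2 fold change was -0.85. With 1 library left out at a time the log2 fold change ran from -1.10 without Treg replicate 1 to -0.49 without Treg replicate 2.

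Heat-shock transcripts, like Klf2, differed widely between the libraries of a group. Hspa1a, which encodes an inducible HSP70 chaperone, stood at 13649.9, 2045 and 11230.3 CPM in reporter-null replicates 1, 2 and 3, and at 1370.4 and 13085 CPM in Treg replicates 1 and 2. Dnajb1, which encodes an HSP40 co-chaperone, stood at 1949, 532 and 1733 CPM in the reporter-null libraries and at 544 and 3217 CPM in the Treg libraries. In both groups the library lowest in Klf2 was also the one lowest in these chaperones. Between the other reporter-null libraries the order differed, as replicate 1 had less Klf2 than replicate 3 but more of both chaperones. Reporter-null replicate 2 and Treg replicate 1 also had the most epithelial, plasma cell, B cell, myeloid and fibroblast marker transcripts of their groups. Over the whole list of 21 dissociation and immediate-early genes the summed level was 79317, 47330 and 69656 CPM in reporter-null and 31898 and 70009 CPM in Treg libraries. This sum includes the heat-shock genes, with Hspa1b at 19183, 3579 and 15407 CPM in reporter-null and 2422 and 18678 CPM in Treg libraries. Other genes of the list went both ways. In reporter-null replicate 2 Fos and Jun were lowest of the group, and Junb and Jund highest. The part of the list, or of those marker transcripts, in the Klf2 difference was not tested, and the same libraries carry both.

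**Figure D2:**
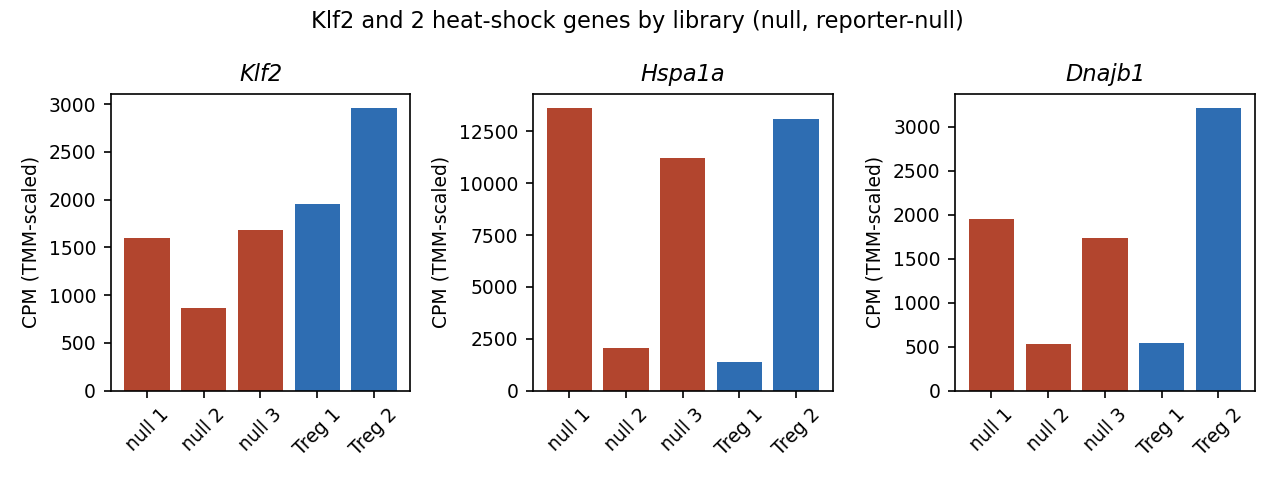
CPM of Klf2, Hspa1a and Dnajb1 in each library, as bars from 0, with the 3 reporter-null libraries (null) left of the 2 Treg libraries. Reporter-null replicate 2 and Treg replicate 1 hold the lowest Klf2 bar of their group and the lowest bars of both heat-shock genes.

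Klf3, a repressor of the same zinc finger family that works with the co-repressor CtBP, was the steadiest of the 9 genes across reporter-null libraries. It stood at 109, 109 and 111 CPM in reporter-null replicates 1, 2 and 3, against 285 and 259 CPM in Treg replicates 1 and 2. The 3 reporter-null libraries were nearly level with each other and well under both Treg libraries. Klf3 fell by 1.31 on the log2 scale (SE 0.10, edgeR adjusted p = 0.000991), or 2.48-fold, with means of 109.5 ± 1.01 and 272 ± 18 CPM. The call held with each library left out in turn, with an adjusted p of 7.72e-05 to 0.0199, and the log2 fold change then ran from -1.37 to -1.24. Over 14 alternatives its adjusted p ran from 5.24e-38 to 0.0654, and 1 of them ended the call.

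The promoters of these factors are shown because both members of the family lay lower in reporter-null cells, although Klf2 was not called. The sequences are RefSeq's on build GRCm38.p6, 250 bases before to 50 after the transcript start, and 7 of the 9 genes had an entry. S1pr1 and Cd69 are named only. Klf2 lies at chr8:72318812-72319111 on the plus strand and Klf3 at chr5:64803271-64803570 on the plus strand. Capitals mark CACCC, the core bound by KLF factors, read on either strand.
Klf2: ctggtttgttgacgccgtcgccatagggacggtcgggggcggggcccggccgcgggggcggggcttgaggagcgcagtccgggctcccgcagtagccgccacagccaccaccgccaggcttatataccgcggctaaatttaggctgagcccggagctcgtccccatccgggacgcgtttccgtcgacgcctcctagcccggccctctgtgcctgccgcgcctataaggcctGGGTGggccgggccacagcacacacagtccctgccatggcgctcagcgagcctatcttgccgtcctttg
Klf3: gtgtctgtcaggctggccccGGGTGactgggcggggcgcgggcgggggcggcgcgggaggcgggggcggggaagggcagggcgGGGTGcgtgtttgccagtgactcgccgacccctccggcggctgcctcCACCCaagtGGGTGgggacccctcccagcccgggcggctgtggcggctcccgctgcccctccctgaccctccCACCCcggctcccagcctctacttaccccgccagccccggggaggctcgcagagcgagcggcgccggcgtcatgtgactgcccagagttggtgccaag
The Klf2 window holds 1 KLF core and the Klf3 window 5. At least 1 is held by 57.5% of the 32851 promoter windows of 300 bases, and by 13 of the 15 windows of the 7 genes with an entry. Some of the 15 windows, of Lef1 and of Satb1, overlap, so a match there can count in more than 1 window. A match is a description of these letters and no measure of binding.

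S1pr1, the egress receptor, was 2.10-fold lower in reporter-null cells. It stood at 103, 102 and 84.6 CPM in reporter-null replicates 1, 2 and 3, against 207 and 199 CPM in Treg replicates 1 and 2. Every reporter-null library was far under both Treg libraries, and the gap exceeded the spread inside the groups. S1pr1 fell by 1.07 on the log2 scale (SE 0.13, edgeR adjusted p = 0.00416), with means of 96.7 ± 10.5 and 203 ± 5.97 CPM. Without Treg replicate 1 the adjusted p was 0.0558 at a log2 fold change of -1.04, within a range of 7.51e-12 to 0.0747 over 14 alternatives.

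S1pr4, another S1P receptor of lymphocytes, fell less. It stood at 38.9, 32.9 and 33.9 CPM in reporter-null replicates 1, 2 and 3, against 54.9 and 49.5 CPM in Treg replicates 1 and 2. The groups did not overlap, and the log2 fold change was -0.57 (SE 0.13, edgeR adjusted p = 0.0423). This call was weak. The adjusted p was 0.281 with Treg replicate 1 left out and 0.15 with Treg replicate 2 left out. It was 0.115 with reporter-null replicate 1 left out and 0.0895 with reporter-null replicate 3 left out. Of 14 alternatives 7 ended the call. With Treg replicate 1 and reporter-null replicate 2 both left out, which leaves a lone Treg library, the log2 fold change was -0.44.

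Cd69, whose protein opposes S1PR1, lay the other way. It stood at 1445, 1621 and 1618 CPM in reporter-null replicates 1, 2 and 3, against 1179.9 and 1279 CPM in Treg replicates 1 and 2. All reporter-null libraries were above both Treg libraries by a small margin. The log2 fold change was 0.34 (SE 0.13, edgeR adjusted p = 0.175), with an unadjusted 95% interval of 0.04 to 0.65. DESeq2 called it higher (adjusted p = 0.00769), within a range of 0.00769 to 0.573 over 14 alternatives.

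The counts of S1pr1 and Cd69 can also be set against each other inside each library, which needs no scaling between libraries. There were 0.0715, 0.0631 and 0.0523 S1pr1 counts per Cd69 count in reporter-null replicates 1, 2 and 3, against 0.175 and 0.155 in Treg replicates 1 and 2. The ratio was lower in every reporter-null library, with a mean of 0.0623 ± 0.00962 against 0.165 ± 0.0143. The ratio of S1pr1 to S1pr4 counts was 2.75 ± 0.321 in reporter-null and 3.89 ± 0.171 in Treg libraries. These ratios are given with no test, since an exact permutation test of 3 libraries against 2, on the absolute difference of means, cannot give a p under 0.1.

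S1pr1 and Klf2 are also abundant in endothelium, and S1pr4, Bach2 and Cd69 in B cells. Of 12 endothelial markers 7 stayed under 1 CPM in all libraries, among them Cdh5 and Kdr. The list summed to 88.4 to 107 CPM in reporter-null and 90.2 to 116 CPM in Treg libraries, most of it Pecam1, which T cells also express, at 86.2 to 95.3 CPM in reporter-null and 81.4 to 101 CPM in Treg libraries. Of the 4 that were tested, Prox1, a factor of lymphatic endothelium, was called lower, beside 8.79% of all tested genes called. It stood at 0.528 to 0.623 CPM in reporter-null and 6.46 to 12.5 CPM in Treg libraries, the direction of S1pr1. Lyve1, another lymphatic marker, was too low to be tested, at 0 to 1.01 CPM in reporter-null and 0.0543 to 0.139 CPM in Treg libraries. The part of endothelial transcripts in the S1pr1 result was not tested. The 8 B cell markers summed to 14.9 to 46.5 CPM in reporter-null and 26.1 to 50.1 CPM in Treg libraries, and Cd79b was called lower. The defining B cell gene Pax5 stayed at 0.108 to 1.20 CPM in reporter-null and 0.139 to 0.163 CPM in Treg libraries. The part of the remaining B cell transcripts in the results was not tested.

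The 4 measured markers of gamma-delta and innate-like T cells summed to 50.9 to 85.0 CPM in reporter-null and 7.54 to 8.64 CPM in Treg libraries. Blk, a kinase of such cells and of B cells, was the 1 of these 4 called, beside 8.79% of all tested genes, at 36.8 to 54.3 CPM in reporter-null and 2.01 to 3.74 CPM in Treg libraries. Zbtb16, which encodes the innate-like T cell factor PLZF, was not called, at 1.91 to 4.32 CPM in reporter-null and 1.16 to 1.36 CPM in Treg libraries, and neither were Cd163l1 and Sox13, of which Sox13 overlapped between the groups. Of 7 NK and innate lymphoid markers Kit was called higher, and their sum was 85.9 to 136 CPM in reporter-null and 99.9 to 103 CPM in Treg libraries. The part of such cells in the levels of the 9 genes, and of Cxcr6, was not tested.

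Tcf7 and Lef1, related factors that often act together, parted in reporter-null cells. Tcf7 stood at 331, 314 and 282 CPM in reporter-null replicates 1, 2 and 3, against 167 and 198 CPM in Treg replicates 1 and 2. Each reporter-null library was above both Treg libraries. Tcf7 rose by 0.76 on the log2 scale (SE 0.13, edgeR adjusted p = 0.0176), with means of 309 ± 25.2 and 182 ± 22 CPM. The call was lost without Treg replicate 1 (0.17), Treg replicate 2 (0.0764) or reporter-null replicate 1 (0.0902), while the log2 fold change stayed between 0.64 and 0.90 with any single library left out. Over 14 alternatives the adjusted p ran from 1.05e-06 to 0.17.

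Lef1 stood at 31.9, 44.4 and 21.6 CPM in reporter-null replicates 1, 2 and 3, against 191 and 171 CPM in Treg replicates 1 and 2. The reporter-null libraries varied among themselves, but the highest of them was far under the lower Treg library. Lef1 fell by 2.47 on the log2 scale (SE 0.29, edgeR adjusted p = 0.00726), or 5.55-fold, the largest difference among the 9 genes, and was number 133 of the 668 genes called lower when ordered by fold. Without Treg replicate 1 the adjusted p was 0.0776 and without Treg replicate 2 it was 0.0644, at log2 fold changes of -2.39 and -2.55, within a range of 1.02e-37 to 0.0776 over 14 alternatives. On the GENCODE M21 annotation 1208 exonic bases of Lef1 overlap an antisense gene, and without a stated strand setting reads there cannot be told apart.

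The 2 genes can be set against each other inside each library as well. There were 10.4, 7.07 and 13.0 Tcf7 counts per Lef1 count in reporter-null replicates 1, 2 and 3, against 0.872 and 1.15 in Treg replicates 1 and 2. Treg cells thus had about as many Tcf7 as Lef1 counts and reporter-null cells several times more, with means of 10.2 ± 2.99 and 1.01 ± 0.199. Counts are not corrected for transcript length, and whether both groups use transcripts of the same length was not tested.

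**Figure D3:**
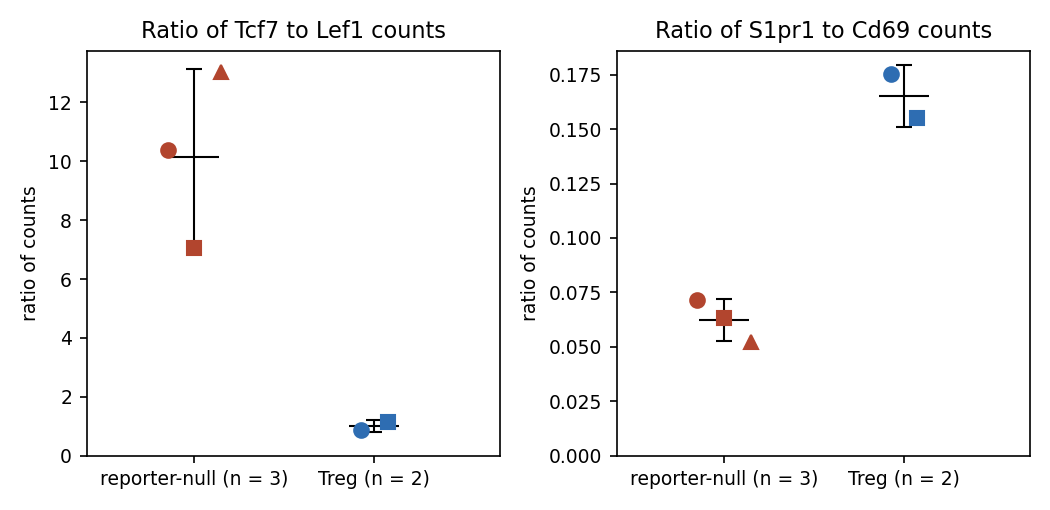
Ratio of Tcf7 to Lef1 counts and of S1pr1 to Cd69 counts in each library, the 3 reporter-null libraries left of the 2 Treg libraries, with mean and SD in black. The Tcf7 to Lef1 ratio lies at 7.07 to 13.0 in reporter-null and 0.872 to 1.15 in Treg libraries, and the S1pr1 to Cd69 ratio at 0.0523 to 0.0715 and 0.155 to 0.175.

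The Tcf7 promoter is shown because Tcf7 was the member called higher, and because forkhead factors, the family of FOXP3 and FOXO1, bind the letters GTAAACA. Of 2 RefSeq windows for Tcf7, the one at chr11:52282546-52282845 on the minus strand holds that core, in capitals.
Tcf7: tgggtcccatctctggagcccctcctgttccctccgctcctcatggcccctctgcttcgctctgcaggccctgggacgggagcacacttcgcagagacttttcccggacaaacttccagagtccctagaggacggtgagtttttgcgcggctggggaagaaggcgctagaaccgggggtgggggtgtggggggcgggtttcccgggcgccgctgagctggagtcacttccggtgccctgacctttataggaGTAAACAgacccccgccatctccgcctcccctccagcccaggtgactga
The core starts at base 2 of this transcript. It was found on either strand in 3.65% of all promoter windows and in 1 of the 15 windows of the 7 genes with an entry. CTTTGA, the core bound by TCF1 and LEF1 themselves, was found in 16.0% of all windows and in 2 of those 15, 1 of Lef1 and 1 of Bach2. TGAGTCA, shared by AP-1 and BACH factors, was found in 5.2% of all windows and in 0 of the 15.

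Bach2, the repressor of effector genes, was moderately lower in reporter-null cells. It stood at 75.2, 89.6 and 84.8 CPM in reporter-null replicates 1, 2 and 3, against 125 and 131 CPM in Treg replicates 1 and 2. No reporter-null library reached the Treg libraries. Bach2 fell by 0.62 on the log2 scale (SE 0.12, edgeR adjusted p = 0.0241), and the call was lost without Treg replicate 1 (0.136), Treg replicate 2 (0.153) or reporter-null replicate 1 (0.123). Over 14 alternatives its adjusted p ran from 5.91e-05 to 0.153. The antisense gene Bach2os shares 537 exonic bases with it on GENCODE M21 and had 96 to 148 counts in reporter-null and 180 to 228 counts in Treg libraries.

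Satb1, the chromatin organiser that FOXP3 is known to repress in Treg cells, was lower in reporter-null cells. It stood at 211, 319.6 and 227 CPM in reporter-null replicates 1, 2 and 3, against 876 and 651 CPM in Treg replicates 1 and 2. Each group's highest level was in the library with the most epithelial and plasma cell marker transcripts, reporter-null replicate 2 and Treg replicate 1. These libraries also held the lowest Hspa1a and Dnajb1 levels of their groups. The part of any of these transcripts in the Satb1 level was not tested. Satb1 fell by 1.60 on the log2 scale (SE 0.22, edgeR adjusted p = 0.00741), or 3.02-fold. Without Treg replicate 1 the adjusted p was 0.0741 at a log2 fold change of -1.37, within a range of 7.56e-12 to 0.163 over 14 alternatives. Without both of those libraries it was 7.56e-12 at -1.57.

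**Figure D4:**
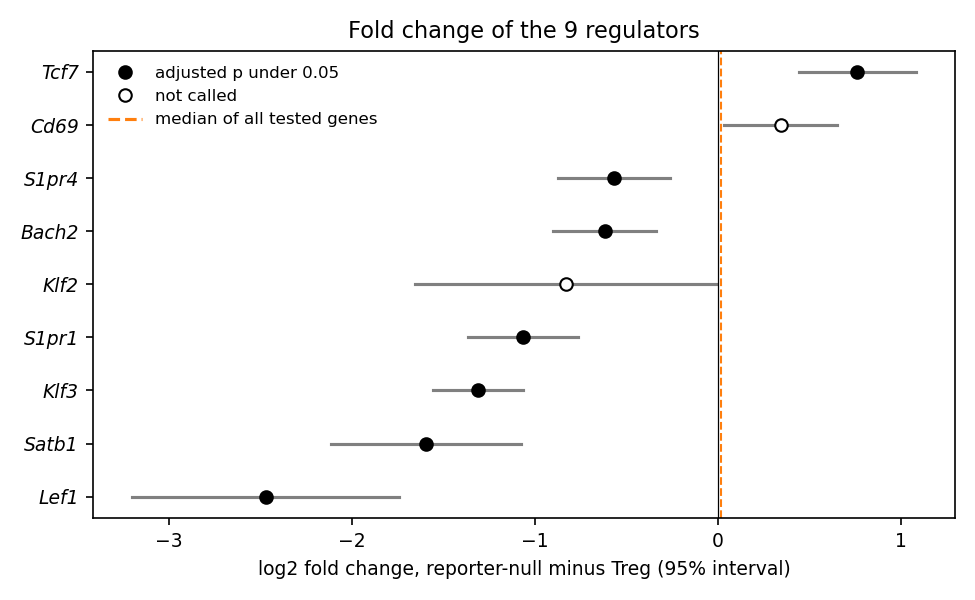
Log2 fold change of the 9 genes, reporter-null minus Treg, with its unadjusted 95% interval as a grey line; filled points passed an adjusted p of 0.05 and open points did not. Tcf7 is the single filled point right of 0, and Lef1 lies farthest to the left at -2.47.

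Per kilobase of exon on GENCODE M21, the order of mean levels was led by Klf2, Cd69 and Tcf7 in both groups. In reporter-null cells the mean CPM per kilobase was 748 for Klf2, 239.8 for Cd69, 118 for Tcf7, 31.8 for S1pr1, 14.8 for S1pr4, 13.3 for Satb1, 9.74 for Klf3, 8.37 for Bach2 and 3.72 for Lef1. In Treg cells it was 1331 for Klf2, 189 for Cd69, 69.4 for Tcf7, 66.6 for S1pr1, 40.1 for Satb1, 24.2 for Klf3, 21.9 for S1pr4, 20.6 for Lef1 and 12.9 for Bach2. In reporter-null libraries the neighbours S1pr4 and Satb1 overlapped, as Tcf7 and S1pr1 did in Treg libraries. S1pr4 also overlapped with Lef1 in Treg libraries. The authors' annotation is not given, so these lengths are approximate.

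Genes of naive and stem-like T cells were lower in reporter-null cells in 12 of 25 tested and higher in 0, a share of 48% beside the 8.79% of all genes, with a median log2 fold change of -0.79 beside 0.02. Slamf6, a receptor of stem-like T cells, stood at 69.0 ± 7.21 CPM in reporter-null and 215 ± 12.6 CPM in Treg cells (log2 fold change -1.64, edgeR adjusted p = 0.000912). Nsg2 (-2.10) and Il6ra (-1.30), a chain of the IL-6 receptor, fell too. These 3 calls held with any single library left out. Il7r, the IL-7 receptor of resting T cells, was not called, at a log2 fold change of -0.02. Of the 13 not called, Foxp1 (0.70), Themis (0.72), Elf4 (0.38) and Bcl11b (0.35) lay higher in every reporter-null library, the direction of Tcf7. Eomes (-1.20), Igfbp4 (-0.79) and Bcl2 (-0.37) lay lower in every one. Over all tested genes 20.3% lay higher in this way and 20.5% lower. These uncalled genes are not part of the count of 12. The count fell with either Treg library left out. It rose with Treg replicate 1 and reporter-null replicate 2 both left out. Each of these fits leaves a lone Treg library.

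Foxo1, the forkhead factor that activates Klf2 and Ccr7, was among the 12 genes called lower and is named after its value was seen. It stood at 461 ± 42.2 CPM in reporter-null and 664 ± 29.2 CPM in Treg cells (log2 fold change -0.53, edgeR adjusted p = 0.047). That call was lost without any single library other than reporter-null replicate 2, with an adjusted p of up to 0.24, within a range of 0.000372 to 0.24.

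Homing receptors for lymph nodes and gut were lower in 6 of 14 tested and higher in 0, with a median log2 fold change of -0.36. The follicle receptor Cxcr5 stood at 7.55 ± 2.95 CPM in reporter-null and 131 ± 30.6 CPM in Treg cells (-4.12, edgeR adjusted p = 0.00297). Ccr7, the lymph node receptor, stood at 395 ± 86.7 CPM in reporter-null and 1431 ± 293 CPM in Treg cells (-1.86, adjusted p = 0.00429), and its adjusted p was 0.0505 without Treg replicate 1, within a range of 6.76e-15 to 0.0862. Gpr18 fell by 2.01 on the log2 scale. Itgb7, an integrin chain of gut homing, was not called, at -0.08. The count was 3 without Treg replicate 1.

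Tissue residency genes were higher in 7 and lower in 4 of 18 tested. Cxcr6, a chemokine receptor of resident T cells, stood at 1001 ± 88.1 CPM in reporter-null and 191 ± 15.5 CPM in Treg cells (2.39, edgeR adjusted p = 0.000485). Ahr, a sensor of environmental ligands (1.09), and Hic1 (0.72) rose as well, as did Bhlhe40, with 2981 ± 1052 CPM in reporter-null and 1053 ± 27.3 CPM in Treg cells. Itgae, which encodes the epithelium-binding integrin chain CD103, stood at 18.5 ± 3.08 CPM in reporter-null and 541 ± 15.9 CPM in Treg cells (-4.87, adjusted p = 5.76e-05), and Cd101 (-1.66), Rgs2 (-1.04) and Rgs10 (-1.07) fell. The list moved in both directions, and its median was 0.22. The count of 11 fell to 4 with Treg replicate 1 left out, and to 6 with either Treg replicate 2 or reporter-null replicate 1 left out. Ahr was not called when Treg replicate 1 was left out (adjusted p = 0.0734, range over the alternatives 3.13e-14 to 0.0907), nor was Rgs10 when either Treg library was (up to 0.089, range from 2.04e-08). Hic1 and Bhlhe40 were not called without either Treg library or reporter-null replicate 1 (up to 0.113 and 0.232, ranges from 7.49e-09 and 1.43e-06).

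Effector and terminal differentiation genes were higher in 5 and lower in 1 of 17 tested. Zeb2, a factor of terminal effector cells, stood at 334 ± 43.8 CPM in reporter-null and 47.9 ± 8.83 CPM in Treg cells (2.80, edgeR adjusted p = 0.000625). Id2, an inhibitor of E proteins (0.90), rose, while Gzmb, a cytotoxic granule protease, fell by 1.69 on the log2 scale. Of the 11 not called, Klrg1 (-2.90) lay lower in every reporter-null library, as did 20.5% of all tested genes. Havcr2 (0.58) and Maf (0.49) lay higher in every one, as did 20.3%. Tbx21 (0.07) and Cx3cr1 (-0.23) overlapped between the groups. The count of 6 was 3 without either Treg library or reporter-null replicate 1. Gzmb was not called when Treg replicate 2 was left out (adjusted p = 0.0522, range over the alternatives 7.59e-17 to 0.0636), nor was Id2 when either Treg library or reporter-null replicate 1 was (up to 0.123, range 3.13e-10 to 0.126).

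**Figure D5:**
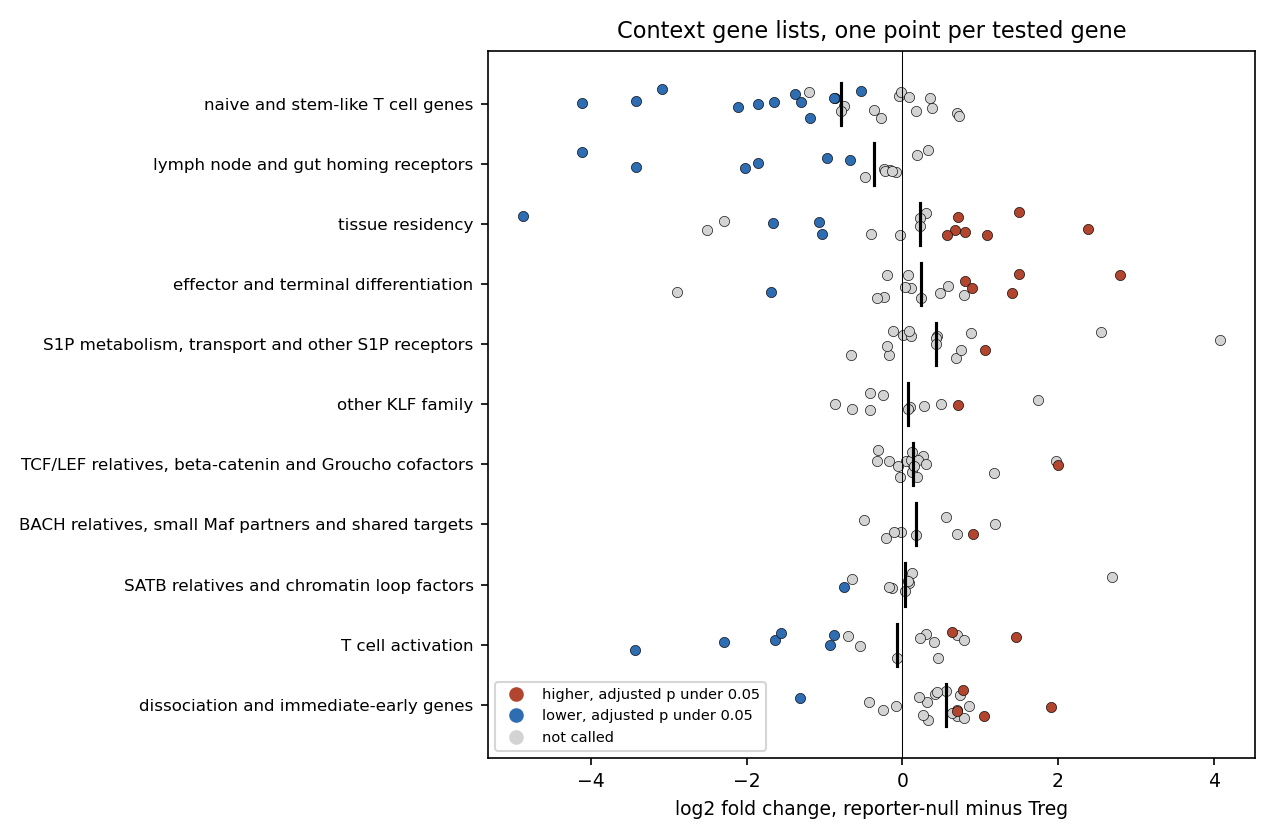
Log2 fold change, reporter-null minus Treg, of every tested gene of 11 context lists, with red for higher and blue for lower genes at an adjusted p under 0.05, grey for genes not called and a black bar at each list's median. The naive and stem-like list holds 12 blue points and 0 red, and the tissue residency list holds 7 red and 4 blue.

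T cell activation genes were higher in 2 and lower in 6 of 17 tested, although Cd69, an activation marker itself, was not called. Tnfrsf9 (-3.44), Tnfrsf18 (-1.56), Cd83 (-2.28) and Tnfrsf4 (-1.64) fell, and Cd44 (0.65) and Egr3 (1.46) rose, of which the first 4 are also typical of Treg cells. The count of 8 was 4 without Treg replicate 1 and 5 with any one of Treg replicate 2 and reporter-null replicates 1 and 3 left out. Dissociation and immediate-early genes, which digestion of tissue can induce together with Cd69, were higher in 4 and lower in 1 of 21 tested, with a median of 0.56. Ier3 (1.91), Fosb (1.06), Nfkbia (0.71) and Btg2 (0.78) rose and Socs3 (-1.32) fell. Their count of 5 was 1 with either Treg replicate 1 or reporter-null replicate 1 left out, 3 with Treg replicate 2 left out and 9 with reporter-null replicate 2 left out. Ier3, Fosb, Nfkbia, Btg2, Cd44 and Egr3 were not called without either Treg library or reporter-null replicate 1, with an adjusted p of up to 0.14, 0.179, 0.208, 0.239, 0.252 and 0.242, and the last 3 also not without reporter-null replicate 3. Their part in the level of Cd69 was not tested.

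Relatives and partners of the 9 genes were called in shares of 5.56% to 11.1% per list, near the 8.79% of all genes. Among 11 other KLF genes Klf9 was higher (0.72), and Klf6, the most abundant, was not called (0.10). Among 16 genes for other S1P receptors, S1P metabolism and receptor signalling Arrb1, an arrestin, was higher (1.06), and S1pr2 was not called (-0.12). Among 18 TCF/LEF relatives and cofactors Tle2, a Groucho co-repressor, was higher (19.6 ± 2.66 CPM in reporter-null and 4.87 ± 0.295 CPM in Treg cells, 2.00), and Ctnnb1, which encodes beta-catenin, was not called (-0.33). Among 9 BACH relatives and small Maf partners Nfe2l1 was higher (0.91), and among 9 SATB relatives and chromatin loop factors Cux1 was lower (-0.75). The calls of Klf9, Arrb1, Nfe2l1 and Cux1 were lost without Treg replicate 1, Treg replicate 2 or reporter-null replicate 1, with an adjusted p of up to 0.179, 0.156, 0.276 and 0.196, that of Klf9 also without reporter-null replicate 3. Tle2 kept its call with each library left out. These small counts also moved upward: without reporter-null replicate 2 they were 3 for the KLF list, 2 for the S1P list and 2 for the TCF/LEF list, and without reporter-null replicate 3 the S1P list had 2.

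Of the 35 genes called in these 11 lists and named by the rule for them, 18 kept their call with any single library left out. Of the other 17, 16 lost it when Treg replicate 1 was left out and 15 when Treg replicate 2 was. Leaving out reporter-null replicate 1 cost 13 of them their call, leaving out replicate 3 cost 4 and leaving out replicate 2 cost 0.

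The genes whose pattern over the 5 libraries was most like a called member were found by the distance between centred log2 CPM profiles, among 9095 genes of at least moderate level. Nearest to Tcf7 was Pik3cd, the delta catalytic subunit of PI3 kinase, at a distance of 0.0571, with 467, 466 and 415 CPM in reporter-null replicates 1, 2 and 3, against 243 and 287 CPM in Treg replicates 1 and 2. Nearest to Satb1 was Snx9, a sorting nexin of endocytosis, at 0.0486, with 36.9, 56.2 and 38.9 CPM in reporter-null and 156 and 117 CPM in Treg libraries. It shared the peaks of Satb1 in reporter-null replicate 2 and Treg replicate 1. For the other members the nearest 2 were Ccs and Samhd1 for Klf3 (0.110 and 0.116), Dnah17 and Icam2 for S1pr1 (0.126 and 0.140), and Afmid and Xpa for S1pr4 (0.0826 and 0.0910). They were Pde2a and Snx18 for Lef1 (0.403 each) and Col4a3bp and Mrpl54 for Bach2 (0.116 and 0.128), with Csrp2bp second for Tcf7 (0.0784) and N4bp1 second for Satb1 (0.286). Lef1 had the least close neighbours of the 7 called members. With 5 libraries in 2 groups any gene that differs between the groups has a like pattern.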

How the data were processed

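RNA-seq counts came from 5 libraries, 3 reporter-null and 2 Treg, grouped and numbered by the sample titles. Per the labels' protocols, RNA was extracted with TRIzol, amplified with SMART-Seq v4, made into libraries with the KAPA Hyper Prep kit and sequenced as paired ends on an Illumina HiSeq. The authors deposited whole-number counts per gene symbol, not normalised, and the submitters' processing notes name DESeq. Aligner, build, annotation and strand setting: not given in the sources used here. Of 24421 rows, 4 named NA (0.0034% to 0.00492% of a library's counts) were left out. Depth was 17670420 to 22395169 counts, and reads carried no molecular identifiers.

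Genes were kept by filterByExpr (minimum count 10, minimum total 15), scaled by TMM and tested in R 4.3.3 with edgeR 4.0.16 (robust quasi-likelihood F test, Benjamini-Hochberg adjustment). The SE came from the F statistic, as the absolute log2 fold change over its root. The steps were tested on simulated data. Replicates differed by more than sampling noise (chi-square of 16.9 to 73.8 per degree of freedom). Alternatives used DESeq2 1.42.0, limma 3.58.1, other scalings, filters and thresholds, a replicate block and left-out libraries. The members and 11 context lists were chosen with earlier results of these data known. Named were the 9 members, Foxp3 and Thy1, up to 4 called genes per list and direction, uncalled list genes to describe a count, and the 2 nearest patterns per called member (average log2 CPM of at least 3, prior count 2). Some genes that this rule names are not reported here.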

Additional observations from a re-analysis of the deposited data

How the results depend on the processing

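Every member kept its direction under all 14 alternatives, and 98 of 126 calls stayed on their side of the threshold. RLE factors, upper quartile factors, limma-voom, no filter and a CPM filter changed no member's call. DESeq2 called 2323 genes in place of 1245 and added Klf2 (-0.83) and Cd69 (0.35). A threshold of 0.01 gave 489 genes, and 26 list genes in place of 48. Leaving out 1 library gave 341 to 2035 genes and 19 to 64 list genes, with log2 fold changes of -1.10 to -0.49 for Klf2, -1.12 to -0.98 for S1pr1, -0.64 to -0.49 for S1pr4, 0.64 to 0.90 for Tcf7, -2.77 to -2.25 for Lef1, -0.69 to -0.55 for Bach2 and -1.81 to -1.37 for Satb1. With Treg replicate 1 and reporter-null replicate 2 both left out, which leaves a lone Treg library assumed to vary like the rest, 2153 genes were called, Klf2 was called (-0.85) and S1pr4 was not (-0.44). The cause of these changes was not tested.

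Whether the titles' replicate numbers pair the libraries cannot be told here. By these numbers, deviations from the group means of same-numbered libraries correlated at -0.511 and -0.602. A replicate block on the title numbers left 24 genes and 4 list genes, and no member was called. Its values were -1.32 for Klf3, -0.98 for S1pr1, -0.54 for S1pr4, 0.83 for Tcf7, -2.26 for Lef1, -0.64 for Bach2 and -1.54 for Satb1. The numbers in the descriptions differ from those in the titles, and by them the same-numbered libraries correlated at 0.602 and 0.481. With 2 Treg libraries their deviations mirror each other, so these values are not independent, and a pair with unlike numbers, Treg replicate 2 with reporter-null replicate 1, correlated at 0.511. The correlations neither show nor exclude a pairing by either set of numbers. A block on the description numbers, added after seeing the data, called 1399 genes and Klf2 (-1.0, adjusted p = 0.00197), and lost S1pr4 (-0.64) and Bach2 (-0.55).

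With 2 Treg libraries the spread between libraries, more than depth, limits the tests, since no member had under 486 counts in a library.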
